A study of Oryctolagus cuniculus with 24 samples.

Results

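Fetal bovine serum (FBS) was given to primary rabbit corneal keratocytes, which populate the stroma of the cornea, and the cells were compared with keratocytes kept in serum-free medium. The comparison takes 16 of the 24 libraries of the study by their treatment labels, 8 with FBS and 8 without, and 13308 of the 23428 genes in the count table had enough counts to be tested. All cells were at first passage, were plated in serum-free medium on glass coated with collagen and were cultured for 6 days. The serum-free group, which the study calls the keratocyte condition, received serum-free medium again on days 1 and 3. The FBS group, its fibroblast condition, received serum-free medium on day 1 and DMEM with 10% FBS on day 3. FBS therefore came with a change of base medium, and the effects of serum and of DMEM cannot be told apart. The other 8 libraries, the myofibroblast condition, received TGF-β1 (5 ng/mL) from day 1, also without serum, and are used here only for contrast. The labels do not say whether libraries of 1 group came from separate animals or cultures, so p-values rest on the spread of these libraries alone, and that spread may be technical.

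Keratocytes are quiescent, neural crest derived cells that build the transparent stroma from narrow collagen fibrils, which are spaced by small leucine-rich proteoglycans carrying keratan sulfate. Serum contains platelet-derived and other growth factors, lysophospholipids that act through the serum response factor, and lipids, and in culture it turns keratocytes into dividing, spread fibroblasts. The corneal stroma sees a comparable change around wounds, where such fibroblasts repopulate the tissue.

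Library totals were 17151397 to 21540864 counts without serum and 15659561 to 22528261 with it. Correlations of log2 CPM, counts scaled to a library size of 1000000, were 0.953 to 0.993 among FBS libraries, 0.948 to 0.987 among serum-free libraries and 0.743 to 0.790 across the groups. The library names number each group from 5 to 12, and numbers 5 to 8 (replicates 1 to 4, called set 1 here) stood apart from numbers 9 to 12 (replicates 5 to 8, set 2). List medians are therefore given pooled and, for most lists, then for each set. Single genes have the pooled log2 fold change unless a set is named. FBS replicates 5 and 6 also stood apart from 7 and 8 within set 2. CPM use library sizes scaled by TMM, the trimmed mean of M-values. Under that scaling the median log2 fold change of all tested genes was -0.04. With total library size in its place every log2 fold change lies higher, and the median is 0.21, a shift of 0.25. The samples are bulk RNA, in which fewer cells of a type and less RNA per cell cannot be told apart.

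Most of the measured transcriptome differed between the groups. In edgeR's quasi-likelihood test with Benjamini-Hochberg adjustment, 10643 genes (80.0% of those tested) passed an adjusted p of 0.05, of which 5257 (39.5%) were higher with FBS and 5386 (40.5%) lower. A change of at least 2-fold was found for 6188 genes (46.5%), 2971 upward (22.3%) and 3217 downward (24.2%). At 16-fold or more there were 329 rises and 380 falls, and at 128-fold or more 36 and 51. All 8 FBS libraries lay above all 8 serum-free libraries for 3619 genes (27.2%) and below them for 3424 (25.7%). Because so many genes passed, the counts for gene groups below are to be read against these shares. The effect of FBS differed between the library sets in 2977 genes (22.4%, set-by-treatment term, adjusted p under 0.05), among which the direction was the same in both sets for 2392 and opposite for 571. Named genes with large changes lie at low and at high mean levels in the plot of level against fold change.

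**Figure D1:**
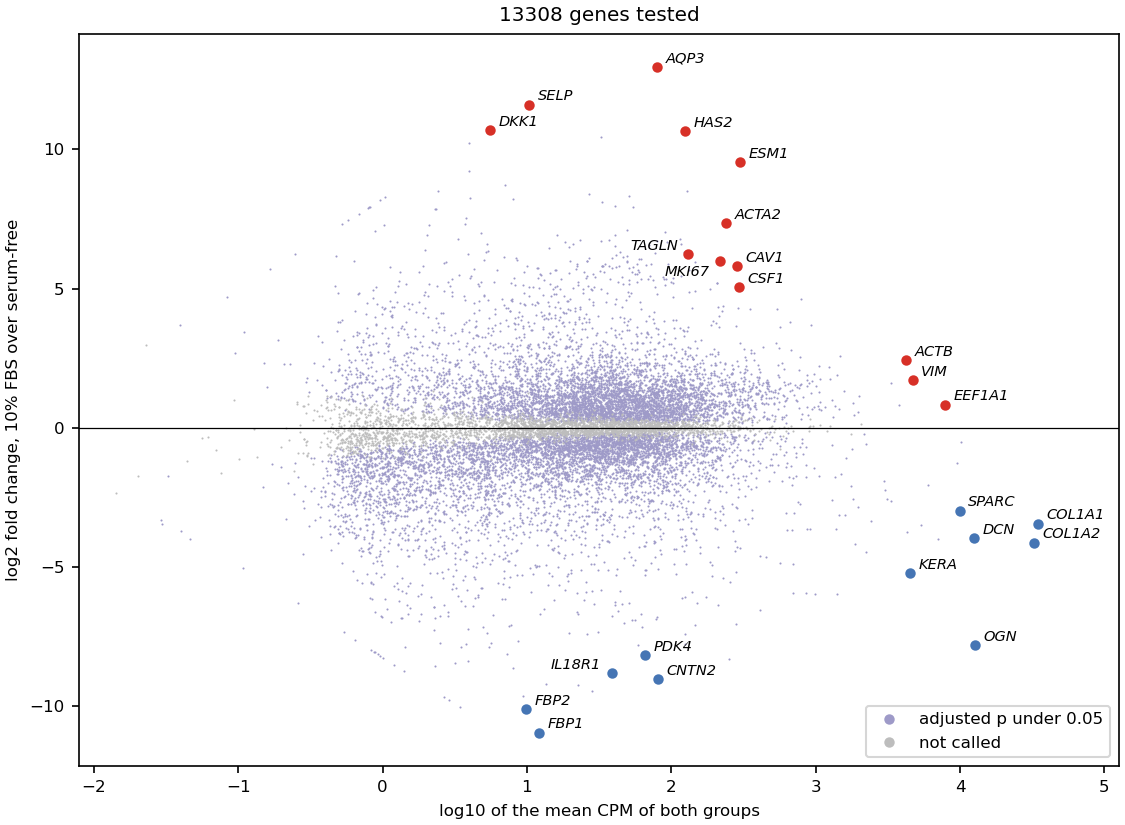
Mean level (log10 CPM of both groups, horizontal) against the log2 fold change of FBS over serum-free (vertical) for the 13308 tested genes, 1 of which had no count in either group and is not drawn. Purple points passed an adjusted p of 0.05, grey points did not, and 24 named genes are marked in red where higher and blue where lower with FBS. Genes at or near 0 counts in a group have fold changes that depend on the constant added by the fit. COL1A1 and COL1A2 sit at the far right and below 0, while AQP3 is the topmost point.

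The 4 genes given as markers of this comparison follow the conditions in every library. MKI67, a nuclear protein of dividing cells (chromosome Un0028, 2308857 to 2336129 in the table's coordinates, for which the sources used here name no genome build), ranged from 0.281 to 18.1 CPM (median 4.86) without serum and from 195 to 599 CPM (median 448) with FBS. Its serum-free libraries split by set, with 8.48 to 18.1 CPM in set 1 and 0.281 to 1.23 CPM in set 2, and within set 2 FBS replicates 5 and 6 were lower than 7 and 8. The groups did not overlap, and MKI67 rose 62.9-fold (log2 fold change 5.98, SE 0.58, edgeR adjusted p = 4.34e-10), by 5.45 on the log2 scale in set 1 and 8.31 in set 2. CAV1, the coat protein of caveolae (chromosome 7, 28753340 to 28800840), ranged from 8.36 to 13.0 CPM (median 8.94) without serum and from 367 to 718 CPM (median 580.5) with FBS. It rose 55.9-fold without overlap (log2 fold change 5.81, SE 0.18, edgeR adjusted p = 5.47e-20), and FBS libraries of set 1 were higher than those of set 2. OGN, the small proteoglycan osteoglycin (chromosome 1, 70251553 to 70270135), ranged from 17350.3 to 39574 CPM (median 23929) without serum and from 91.1 to 182 CPM (median 94.0) with FBS, so that the lowest serum-free library was far above the highest FBS library (log2 fold change -7.79, SE 0.28, edgeR adjusted p = 9.95e-19). AQP3, a channel for water and glycerol (chromosome 1, 20023454 to 20029209), had 2 counts in all serum-free libraries together and 27484 with FBS, with 109 to 207 CPM per FBS library. The ratio was 11652 with an exact 95% interval of 3225 to 96222 that covers counting error only. TGF-β1 libraries held 6 counts of AQP3 in all.

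**Figure D2:**
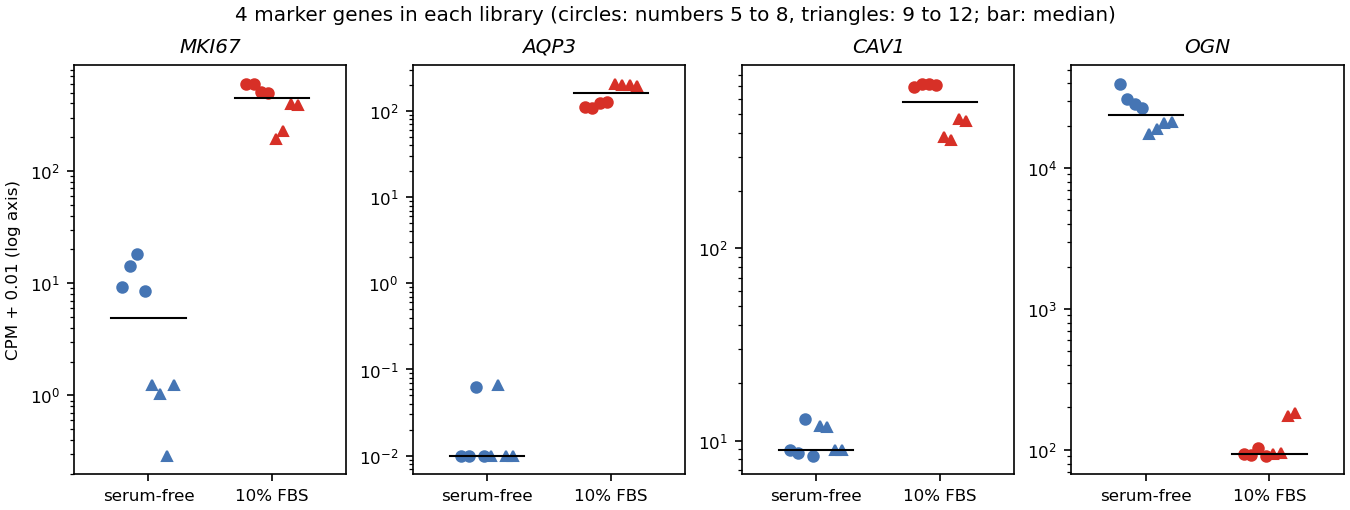
CPM + 0.01 on log axes for 4 marker genes in the 8 serum-free (blue) and 8 FBS (red) libraries, with circles for library numbers 5 to 8, triangles for 9 to 12 and a bar at the median. In each panel the groups do not overlap. The serum-free values of MKI67 and OGN and the FBS values of CAV1 and AQP3 also separate by library number.

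Among the 10 named genes with the largest rise, several are receptors, ligands or matrix enzymes that serum-free keratocytes hardly expressed. SELP, the adhesion receptor P-selectin best known from platelets and endothelium, had 0 counts in the serum-free group and 3527 with FBS, at least 997-fold more if 3 counts are set for that group. DKK1, a secreted Wnt antagonist, had 0 and 1984 counts (at least 561-fold). FBS libraries held 8.82 to 35.2 CPM of SELP and 7.27 to 15.8 CPM of DKK1, so no FBS library was near 0. HAS2, the main hyaluronan synthase of fibroblasts, ranged from 0 to 0.417 CPM (median 0.104) without serum and from 144 to 319.6 CPM (median 261) with FBS, a rise of 10.66 on the log2 scale (SE 0.34, edgeR adjusted p = 8.59e-20). ESM1, the secreted proteoglycan endocan, ranged from 0.0999 to 2.16 CPM (median 0.310) without serum and from 515 to 711 CPM (median 586) with FBS (9.52). GPR158, an orphan receptor (10.44), ANKRD1, a stretch-responsive nuclear protein (8.51), and TM4SF1, a tetraspanin-like membrane protein (8.39), belong to this group with KCNA1. KCNA1, a voltage-gated potassium channel, had 1 count against 1435 (ratio 1217, 95% interval 218 to 48094).

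The 10 largest falls include metabolic enzymes and receptors of nerve cells. FBP1 and FBP2, the fructose-bisphosphatases of gluconeogenesis, had 3625 and 2953 counts in the serum-free group and 1 and 2 with FBS (ratios 4275, 95% interval 767 to 168902, and 1741, 482 to 14385). Both were present in every serum-free library, at 21.0 to 27.9 and 12.7 to 24.4 CPM. CHRNA3, a nicotinic acetylcholine receptor subunit, and GRM3, a metabotropic glutamate receptor, had 859 and 802 counts without serum and 0 with it, at least 338-fold and 315-fold less. CNTN2, an adhesion molecule of axons, ranged from 133 to 200.1 CPM (median 155) without serum and from 0 to 0.582 CPM (median 0.263) with FBS (log2 fold change -9.03, SE 0.37, edgeR adjusted p = 8.89e-18). Both rankings, of rises and of falls, took only called genes without overlap, so the separation of their groups follows from that choice. IL18R1, the interleukin-18 receptor (-8.82), TRIL, an accessory protein of Toll-like receptors (-9.22), and FAM216B (-9.19) fell likewise, and OTOR, which encodes otoraplin, went from 2815 counts to 3 and LIX1 from 949 to 2.

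Matrix genes took a smaller share of the libraries with FBS, and growth machinery a larger one. COL1A1 and COL1A2, the chains of type I collagen, took 12.1 ± 1.72% of all counts without serum and 1.09 ± 0.321% with FBS (mean ± SD, n = 8 in each group here and below). All collagens, the small leucine-rich proteoglycans and the listed matrix glycoproteins together took 28.9 ± 2.93% and 4.60 ± 0.371%. Ribosomal protein genes went from 1.48 ± 0.233% to 4.42 ± 0.988% and genes of mitosis and DNA replication from 0.0360 ± 0.00910% to 0.833 ± 0.111%. For each of these shares the groups did not overlap, and the two-sided exact permutation p was 0.000155, the smallest that 8 against 8 libraries can give. This test takes the 8 libraries of a group as independent, which the sets and the closeness of neighbouring library numbers leave in doubt. The share of the 13 mitochondrially encoded messages was 2.24 ± 0.293% and 2.56 ± 0.799% (exact permutation p = 0.357), with FBS replicates 7 and 8 above the other libraries. Counts were also spread over more genes: the smallest number of genes that together held 50% of a library's counts was 286 ± 48.4 without serum and 766 ± 47.4 with it. These shares do not depend on the scaling between libraries.

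**Figure D3:**
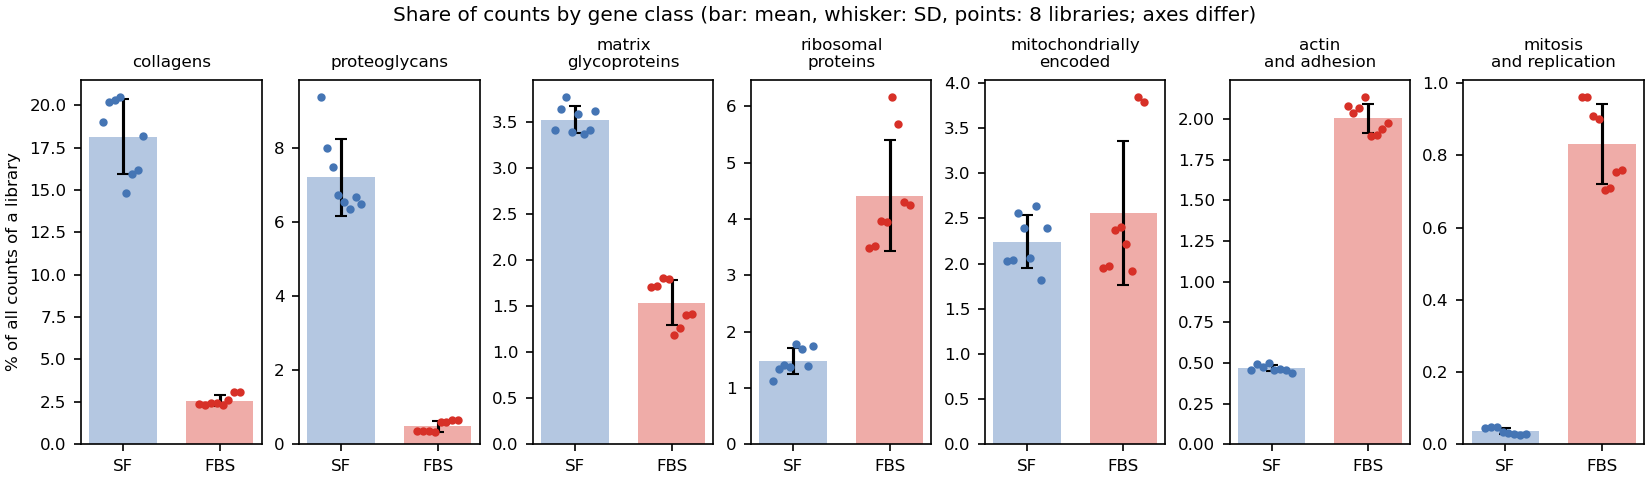
Share of a library's counts, in percent, for 7 gene classes in serum-free (SF, blue) and FBS (red) libraries, with bars at the mean of 8 libraries, whiskers of 1 SD and a point per library, on axes that differ between panels. Collagens, proteoglycans and matrix glycoproteins are lower with FBS in every library, ribosomal, actin and cell division genes are higher, and the mitochondrially encoded share overlaps.

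Genes of cell division rose as a block. All 30 mitotic genes tested rose and in 30 of them the libraries did not overlap, against 52.9% of all genes tested that did not overlap in either direction (27.2% with FBS above; median log2 fold change 5.50, against -0.04 over all genes, with 5.02 in set 1 and 7.07 in set 2). The list includes MKI67, which was itself given as a marker. CDC20, an activator of the anaphase-promoting complex, ranged from 0.235 to 6.56 CPM (median 1.29) without serum and from 201 to 275 CPM (median 225) with FBS (log2 fold change 6.77, SE 0.39, edgeR adjusted p = 9.01e-15). CCNB1, mitotic cyclin B1 (6.59), AURKB, a kinase of chromosome segregation (6.73), and BIRC5, which encodes survivin (6.61), rose by similar factors, and the smallest rise of the list was that of the kinase PLK1 (3.92). Over its members the summed CPM reached 87.5 to 195 in set 1 and 35.0 to 44.4 in set 2 of the serum-free group, and 4203 to 4653 and 3049.8 to 3625 with FBS. The smaller fold changes of set 1 therefore go with higher levels in its serum-free libraries.

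DNA replication genes rose in 24 of 24 cases (median 4.00, 3.86 in set 1 and 4.30 in set 2). GINS1, a subunit of the replicative helicase complex, rose by 6.92, TK1, the thymidine kinase of S phase, by 5.89, CDC45, a helicase cofactor, by 5.50 and POLE, the leading-strand polymerase, by 5.23. RRM2, the inducible subunit of ribonucleotide reductase, ranged from 3.43 to 20.3 CPM (median 8.02) without serum and from 314 to 497 CPM (median 399) with FBS, with no overlap. The least changed was POLA1, the polymerase that primes synthesis (1.20), whose libraries overlapped. Upstream of replication, 15 of 17 regulators of cell cycle entry rose and 2 fell (median 2.58, 2.87 and 2.40 by set). The transcription factors MYBL2 (6.11), E2F8 (5.73), E2F1 (5.03) and E2F2 (4.13) and the growth regulator MYC (3.19) were higher. The members that fell were CCND2, a D-type cyclin (-1.61), and RBL2, the pocket protein p130 of quiescent cells (-1.08).

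Of 15 tested genes linked to cell cycle arrest or quiescence, 8 fell, 2 rose and 5 did not pass (median -0.63, -0.79 and -0.63 by set). PDK4, a kinase that shuts down pyruvate dehydrogenase in fasting, ranged from 14.6 to 273 CPM (median 128) without serum and from 0.0515 to 0.769 CPM (median 0.504) with FBS (log2 fold change -8.15, SE 1.24, edgeR adjusted p = 1.30e-06). Serum-free libraries of set 1 held 14.6 to 26.7 CPM, and those of set 2 held 229 to 273 CPM, with log2 fold changes of -5.34 and -9.12. PIK3IP1, an inhibitor of PI3-kinase (-4.35), GAS1, named for its expression in growth-arrested cells (-2.67), and CCNG2, an atypical cyclin of resting cells (-2.42), fell too. CDKN2C, the inhibitor p18 (2.29), and CDKN1A, the inhibitor p21 (0.66, but 0.10 in set 2 alone, adjusted p = 0.410), were the members that rose. BTG1 and TXNIP were 40.7 ± 5.16 and 19.8 ± 5.04 CPM without serum and 39.3 ± 3.21 and 18.0 ± 3.19 CPM with it (adjusted p = 0.627 and 0.440).

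The machinery for making protein and nucleotides rose broadly and by modest factors. All 20 ribosome biogenesis genes rose (median 2.02, 2.25 and 1.81 by set), led by FBL, the rRNA methyltransferase fibrillarin (2.88), and NOP16 (2.69). The 18 cytosolic ribosomal proteins listed all rose, RPL5 most (2.01), with a median of 1.34 (1.18 and 1.55). Ribosomal protein genes have many processed copies, and the sources used here do not say how reads were split among them. Proteasome subunits and chaperones rose in 20 of 20 cases (median 1.79, 1.71 and 1.85). HSPD1, the mitochondrial chaperonin, rose by 2.86, CCT3, a subunit of the chaperonin that folds actin and tubulin, by 2.82, and HSP90AA1 by 2.58. One-carbon, serine and nucleotide synthesis genes rose in 17 of 20 cases (median 2.07, 2.17 and 1.80), with IMPDH1 (3.32) and CTPS1 (3.03), which make guanine and cytosine nucleotides, in front. The mitochondrial serine enzyme SHMT2 rose by 2.67, whereas its cytosolic counterpart SHMT1 fell (-1.91), the only member of this list to do so, and within set 1 alone 3 members fell.

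The collagen network of the stroma was lower with FBS. Of 11 fibrillar collagens 9 fell and none rose (median -2.82, -2.32 and -2.42 by set). COL1A1 ranged from 47912 to 74872 CPM (median 65073) without serum and from 4185 to 7718 CPM (median 5572) with FBS (log2 fold change -3.44, SE 0.16, edgeR adjusted p = 7.61e-17). COL1A2 ranged from 47365 to 74280.4 CPM (median 64175) without serum and from 2237 to 4882 CPM (median 3470.1) with FBS (log2 fold change -4.12, SE 0.19, edgeR adjusted p = 1.35e-16). In both genes every FBS library lay below every serum-free library. COL5A1 (-2.82), a chain of the type V collagen that sets fibril diameter, COL11A1 (-3.69) and COL2A1, the cartilage collagen (-4.74), fell as well. COL3A1, the collagen of early wounds, was 17.6 ± 4.80 CPM without serum and 21.1 ± 12.5 CPM with it and did not pass (adjusted p = 0.379), but it fell in set 1 alone (-0.67) and rose in set 2 alone (0.75, adjusted p of the set-by-treatment term = 8.81e-05).

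Of 18 other collagens 13 fell and 2 rose (median -2.12, -2.25 and -2.05), and 4 rose with total library size or in set 1 alone. The 3 classical chains of type VI collagen, the beaded filaments between fibrils, fell together, COL6A1 by 2.63, COL6A2 by 3.73 and COL6A3 by 3.48 on the log2 scale. COL4A3, a basement membrane chain, ranged from 909 to 1786 CPM (median 1419.9) without serum and from 14.2 to 35.5 CPM (median 18.6) with FBS (-5.95), the largest fall of this list. COL15A1, a collagen linked to basement membranes, rose (4.48), as did COL4A2 (1.75). Enzymes that process and crosslink collagen were split, with 7 of 23 higher and 11 lower (median -0.23, which turned to 0.03 with total library size and to 0.01 in set 1). P4HA3, a prolyl hydroxylase subunit (4.72), and LOXL4, a lysyl oxidase (3.68), rose. ADAMTS2, the N-propeptidase of procollagen (-3.00), and PLOD1, a lysyl hydroxylase (-2.74), fell.

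The proteoglycans that space the fibrils fell with 1 exception. Of 13 small leucine-rich proteoglycans 12 fell and 1 rose (median -4.36, -5.00 in set 1 and -4.04 in set 2). KERA, the keratan sulfate proteoglycan keratocan and a defining keratocyte gene, ranged from 7534 to 10873 CPM (median 8052) without serum and from 129.8 to 372 CPM (median 224) with FBS (log2 fold change -5.21, SE 0.25, edgeR adjusted p = 2.58e-16). LUM, lumican, ranged from 11808 to 15505 CPM (median 12583) without serum and from 509.9 to 1166 CPM (median 837) with FBS (log2 fold change -4.00, SE 0.21, edgeR adjusted p = 1.49e-15). DCN, decorin, ranged from 20874 to 30691 CPM (median 21409) without serum and from 1025 to 2156 CPM (median 1449) with FBS (log2 fold change -3.95, SE 0.19, edgeR adjusted p = 1.92e-16). None of the 3 overlapped between the groups, and each was higher in the FBS libraries of set 2 than in those of set 1. OMD, osteomodulin, fell by 7.41 and ECM2 by 6.06 on the log2 scale. BGN, biglycan, was the member that rose, from 367 ± 232 to 1368 ± 292 CPM (1.90).

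Enzymes that build glycosaminoglycan chains did not move as 1 group, with 11 of 24 higher and 10 lower (median 0.15, 0.05 and 0.27 by set). B3GNT7, which extends keratan sulfate chains, fell from 114 to 197 to 0.940 to 1.78 CPM (-6.78), and the sulfotransferases CHST6, mutated in macular corneal dystrophy, and CHST1 fell by 3.12 and 2.65 on the log2 scale. HAS2 and the chondroitin sulfate sulfotransferases CHST15 (3.02) and CHST3 (2.65) rose, as did CHST2, another sulfotransferase acting on N-acetylglucosamine (4.46), and UGDH (1.72), which makes the sugar nucleotide used for hyaluronan. Among genes of hyaluronan binding and turnover, 5 of 8 rose and 2 fell (median 1.67, 1.71 and 1.58). CD44, the main hyaluronan receptor, ranged from 26.5 to 45.2 CPM (median 33.9) without serum and from 498 to 810.1 CPM (median 677) with FBS (log2 fold change 4.26, SE 0.14, edgeR adjusted p = 1.20e-19). CEMIP, a protein needed for hyaluronan breakdown, fell (-1.93). HMMR, counted in this list, is also a mitotic gene.

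Matrix glycoproteins fell in 19 and rose in 6 of 32 cases (median -0.95, -0.92 and -1.16). SPARCL1, a relative of osteonectin (-6.37), THBS4, a thrombospondin (-5.97), and MFAP4, a microfibril-associated protein (-5.96), fell most, beside CILP, which went from 291 counts to 2. FN1, fibronectin, ranged from 3932 to 7101 CPM (median 5167) without serum and from 695 to 1256 CPM (median 811) with FBS (log2 fold change -2.54, SE 0.15, edgeR adjusted p = 2.20e-14), with no overlap. Members that rose were EFEMP1, a fibulin (5.24), and TNC, the wound glycoprotein tenascin-C (3.77), followed by TGFBI, a corneal matrix protein (1.75), LAMB1 (1.69), THBS1 (1.60) and POSTN (1.02). FBN1, fibrillin-1, was 884 ± 159 CPM without and 912 ± 245 CPM with serum (adjusted p = 0.806).

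Proteases and their inhibitors rose in 13 and fell in 8 of 22 cases (median 0.90, 1.23 and 0.77). PLAUR, the urokinase receptor, ranged from 0 to 1.14 CPM (median 0.301) without serum and from 91.3 to 132 CPM (median 104) with FBS (log2 fold change 7.93, SE 0.34, edgeR adjusted p = 2.44e-17). ADAM19 (5.12) and ADAMTS1 (5.00) rose without overlap. ADAMTS5, an aggrecanase, fell (-3.63), and the collagenase MMP1 was low in both groups, at 0.947 ± 1.03 and 0.0608 ± 0.0720 CPM (-3.80, not called in set 1 alone). Integrins split into 8 higher and 6 lower of 17 (median 0.35, 0.36 and 0.63). ITGB3 (5.66), a chain of vitronectin receptors, ITGA6 (4.50), a laminin receptor chain, and ITGA5, the fibronectin receptor chain (2.33), rose, while the collagen receptor chains ITGA2 (-4.69) and ITGA11 (-1.82) fell.

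Markers of the keratocyte state fell in 12 and rose in 1 of 14 tested cases (median -3.53, -3.50 and -3.30); the list holds OGN and shares KERA, LUM and DCN with the proteoglycans. CD34, a surface sialomucin of stromal cells, ranged from 223 to 265 CPM (median 235) without serum and from 11.1 to 15.9 CPM (median 13.0) with FBS (log2 fold change -4.20, SE 0.09, edgeR adjusted p = 4.16e-23). ALDH1A1, a dehydrogenase and corneal crystallin, ranged from 1057 to 1581 CPM (median 1315) without serum and from 140.3 to 279 CPM (median 210.5) with FBS (log2 fold change -2.65, SE 0.16, edgeR adjusted p = 3.26e-14), and neither gene overlapped between the groups. NT5E, the ecto-nucleotidase CD73, was the member that rose (0.64), and ANGPTL7 did not pass (-0.48, adjusted p = 0.0710). ANGPTL7 was called lower with the replicate number as a block (-0.59, adjusted p = 0.0372), with the set as a covariate, in set 1 alone (-1.46, against 0.09 in set 2), with limma on FPKM and when FBS replicate 5 or 6 was left out. Corneal crystallins and dehydrogenases as a wider list were split, with 5 of 10 higher and 4 lower. ENO1, enolase, rose (1.12) and TKT, transketolase, fell (-0.62).

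Markers used for activated fibroblasts did not move in 1 direction. Of 12 tested, 5 rose and 6 fell (median -0.25, -0.10 and -0.31 by set, but 0.00 with total library size, where 5 rose and 5 fell). CAV1, CD44 and TNC rose as given above, and VIM, the intermediate filament vimentin, ranged from 1793 to 2532 CPM (median 2255) without serum and from 6381 to 8537 CPM (median 7074) with FBS (1.70). THY1, a lipid-anchored marker of many fibroblasts, ranged from 29.5 to 52.6 CPM (median 41.0) without serum and from 4.25 to 21.6 CPM (median 10.7) with FBS (log2 fold change -1.84, SE 0.29, edgeR adjusted p = 2.53e-06), so it was lower in every FBS library, by more in set 1 (-3.22) than in set 2 (-0.97). FAP, fibroblast activation protein (-2.09), and PDGFRA, the platelet-derived growth factor receptor α (-1.36), fell.

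Contractile genes rose in 11 and fell in 1 of 14 tested cases (median 1.90, 1.97 and 1.86). ACTA2, α-smooth muscle actin, ranged from 0.353 to 6.93 CPM (median 2.71) without serum and from 247 to 722 CPM (median 482) with FBS (log2 fold change 7.35, SE 0.50, edgeR adjusted p = 3.19e-13). With TGF-β1 the level was 115 to 403 CPM (median 202), and the log2 difference of FBS over TGF-β1 was 1.05 (adjusted p = 0.0127). TAGLN, transgelin, ranged from 0.337 to 7.76 CPM (median 3.08) without serum and from 157 to 356 CPM (median 262) with FBS (6.24), against 279.8 to 627 CPM with TGF-β1 (-0.67, adjusted p = 0.0531). The actin genes are close in sequence, and reads may have been split among them by the authors' counting. MYH11, smooth muscle myosin, rose to 7.81 ± 1.18 CPM (2.01), and MYLK, myosin light chain kinase, fell (-2.23).

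The actin cytoskeleton rose almost as a whole, 18 of 19 genes with 1 lower (median 1.91, 2.00 and 1.76). FHL2, a LIM protein of focal adhesions (4.68), the membrane linkers EZR (2.92) and MSN (2.91) and profilin, PFN1 (2.69), rose most. PARVA, α-parvin, fell (-0.64). Among caveolae and coat genes CAV2 rose with CAV1 (4.16), whereas PTRF, the cavin that coats caveolae, ranged from 541 to 1227 CPM (median 895) without serum and from 168 to 354 CPM (median 225) with FBS (-1.92). The caveolins and this cavin thus went in opposite directions. Clathrin, CLTC, did not pass (-0.02, adjusted p = 0.881).

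**Figure D4:**
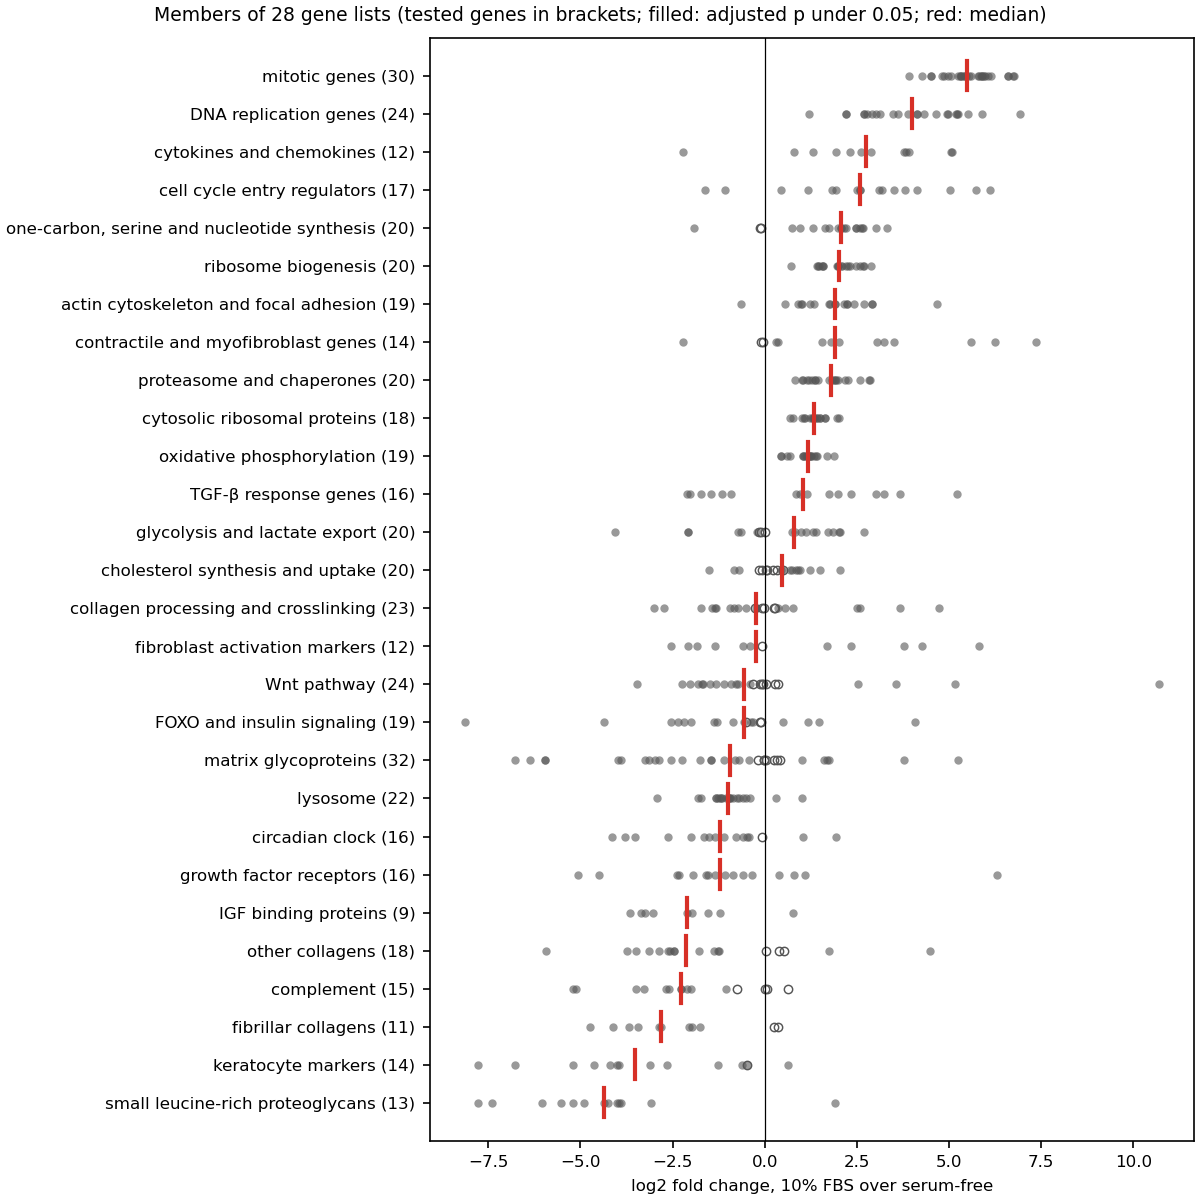
Log2 fold change of FBS over serum-free for the tested members of 28 gene lists (count in brackets), 1 point per gene, filled where the adjusted p was under 0.05, with a red bar at the list's median. Lists are ordered by median, from small leucine-rich proteoglycans at the bottom to mitotic genes at the top, where every point lies to the right of 0. Some genes belong to more than 1 list.

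Targets of serum-responsive and mechanical signaling rose in part. Among 18 early targets of serum response factor, 10 were higher and 2 lower at the end of the culture (median 0.46, 0.51 and 0.88). FOSL1 (4.02) and the nuclear receptor NR4A3 (3.66) rose, EGR2 (-3.71) and ATF3 (-2.21) fell, and EGR1 (125 ± 133 and 126 ± 16.4 CPM) and JUN (50.1 ± 9.39 and 52.8 ± 3.37 CPM) did not pass (adjusted p = 0.994 and 0.610), although EGR1 rose in set 2 alone (1.54). Targets of YAP and TEAD were split, 9 of 19 higher and 7 lower (median 0.13, 0.29 and 0.06). ANKRD1 ranged from 0 to 2.31 CPM (median 0.636) without serum and from 112 to 405 CPM (median 252) with FBS. CTGF, a matricellular growth factor, rose 12.8-fold (3.67), while F3, tissue factor, fell (-4.91). Both ANKRD1 and CTGF were also measured with TGF-β1, at 418 ± 179 and 4632 ± 996 CPM, and FBS was the lower of the treatments for CTGF (-1.43, adjusted p = 9.62e-06).

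Genes that answer TGF-β rose in 10 and fell in 6 of 16 cases (median 1.05, 1.15 and 1.13). CTGF rose as above, with the inhibitors BAMBI (3.25) and SMAD6 (3.02). Against TGF-β1 itself, 4 of these genes were higher with FBS and 10 lower (median -1.08, with 36.4% and 36.9% of all genes called in these directions). LTBP2, a latent TGF-β binding protein, showed the widest gap, at 3.48 ± 1.11 CPM without serum, 1.25 ± 0.456 CPM with FBS and 1996 ± 235 CPM with TGF-β1. Genes of the BMP pathway, a branch of the TGF-β family, rose in 9 and fell in 5 of 15 cases (median 1.92, 2.21 and 1.60). ID2, an inhibitor of helix-loop-helix factors and a direct BMP target, ranged from 0 to 0.966 CPM (median 0.237) without serum and from 50.0 to 118 CPM (median 75.7) with FBS (log2 fold change 7.97, SE 0.37, edgeR adjusted p = 1.02e-16). ID3 (5.95), ID1 (4.35) and SMAD9 (5.80) rose with it, as did the antagonist NOG (4.81). The antagonist CHRD, chordin, ranged from 369 to 529 CPM (median 438) without serum and from 7.68 to 16.5 CPM (median 9.10) with FBS (-5.38), and the ligand BMP6 fell (-4.04).

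Growth factor ligands were mixed and their receptors mostly lower. Of 17 ligands 9 rose and 7 fell (median 1.42, 1.40 and 1.24). CSF1, the macrophage colony-stimulating factor, ranged from 7.80 to 24.8 CPM (median 17.0) without serum and from 514 to 607 CPM (median 587) with FBS (log2 fold change 5.05, SE 0.20, edgeR adjusted p = 5.77e-18). LIF rose (3.92), and IGF1 (-4.22) and the lymphangiogenic factor FIGF, also called VEGF-D (-3.45), fell. Of 16 receptors 12 fell and 4 rose (median -1.22, -0.96 and -1.58). MET, the hepatocyte growth factor receptor, ranged from 1.16 to 5.05 CPM (median 2.96) without serum and from 114 to 344 CPM (median 249) with FBS (log2 fold change 6.30, SE 0.29, edgeR adjusted p = 1.05e-16). Its ligand HGF rose from 7.92 ± 2.11 to 48.8 ± 7.84 CPM (2.62). NTRK2 (-5.06) and KDR, the VEGF receptor 2 (-4.49), fell most among receptors. IGF binding proteins and their proteases fell in 8 of 9 cases (median -2.12, -2.67 and -2.53), with IGFBP2 at 2561 ± 396 and 205 ± 79.4 CPM (-3.65) and the protease HTRA1 at 4421 ± 526 and 435 ± 169.8 CPM (-3.35).

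Feedback genes of the ERK pathway were split, with 7 of 15 higher and 7 lower, or 4 lower with total library size. Their median was 0.22, but 0.67 in set 1 alone and -0.30 in set 2 alone. The nuclear phosphatases DUSP4 (5.51) and DUSP5 (3.74) rose, while SPRY1 (-3.18) and SPRY4 (-1.89), inhibitors induced by fibroblast growth factor, fell. Wnt pathway genes fell in 13 and rose in 4 of 24 cases (median -0.56, -0.60 and -0.76). The pathway's feedback targets NKD1 (-3.47) and AXIN2 (-2.25) fell, the ligand WNT2 (5.16) and the nuclear factor LEF1 (3.55) rose, and DKK1 rose from 0 counts. Notch genes were few: 3 of 6 rose and 2 fell (median 0.32, but 0.91 in set 1 and -0.16 in set 2). LFNG (5.39) and HES1 (2.98) were up and JAG1 was down (-2.09). Without FBS replicates 5 and 6, where 7 genes were tested, the median was -0.26.

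Inflammatory mediators rose and complement fell. Of 12 cytokine and chemokine genes 11 rose and 1 fell (median 2.75, 3.56 and 2.83). PTGS2, the inducible cyclooxygenase, ranged from 19.2 to 32.3 CPM (median 26.7) without serum and from 166 to 472 CPM (median 404) with FBS (log2 fold change 3.83, SE 0.20, edgeR adjusted p = 1.83e-15). IL6 rose to 5.70 ± 4.18 CPM (5.08), and CSF1 and LIF are counted here again. IL34, another ligand of the CSF1 receptor, was the member that fell (-2.22). Complement genes fell in 11 and rose in none of 15 tested cases (median -2.27, -2.36 and -2.10). C3, the central component, was 45.7 to 73.8 CPM without and 0.936 to 13.6 CPM with serum (log2 fold change -3.27, SE 0.40, edgeR adjusted p = 3.39e-08). C7 (-5.20), C5 (-5.13) and CD59, an inhibitor of the membrane attack complex (-3.48), fell also, while CLU, clusterin, was 1238 ± 758 and 1282 ± 430.1 CPM (adjusted p = 0.897), with 0.74 in set 1 and -0.21 in set 2. Interferon response genes rose in 7 and fell in 6 of 14 cases (median 0.19, but -0.31 with neighbouring libraries summed), with OAS2 up (2.08) and IFI44 down (-2.09), both at low levels.

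The listed nuclear genes of oxidative phosphorylation rose, while glycolysis and lipid genes were split. All 19 oxidative phosphorylation genes tested from the list rose (median 1.18, 1.09 and 1.31), NDUFA4 most (1.88). Of 33 complex I subunits taken by name, 24 were higher, 2 lower and 7 not called, against 39.5% of all genes higher and 40.5% lower. Glycolysis genes rose in 11 and fell in 6 of 20 cases (median 0.78, 0.71 and 0.86). PGAM1 rose (2.68), but LDHA, the muscle form of lactate dehydrogenase, ranged from 2027 to 3881 CPM (median 2821) without serum and from 567 to 824 CPM (median 653) with FBS (log2 fold change -2.09, SE 0.17, edgeR adjusted p = 1.14e-11), and the glucose transporter SLC2A1 fell (-2.09). The falls of LDHA and SLC2A1 were the same size on the log2 scale, and ALDOC, a minor aldolase, fell further (-4.06). Genes of lipid uptake, storage and oxidation rose in 8 and fell in 5 of 18 cases (median 0.14, 0.14 and 0.37). The fatty acid sensor PPARG (5.91) and the lipid-binding protein FABP5 (3.80) rose, FABP4 went from 0 counts to 361 (at least 102-fold), and ANGPTL4, an inhibitor of lipoprotein lipase, fell. Its serum-free libraries held 29.0 to 51.4 CPM in set 1 and 971 to 1164 CPM in set 2, against 1.88 to 6.38 CPM with FBS in both sets together, and the log2 fold changes were -3.75 for set 1 and -7.66 for set 2 (-7.06 pooled).

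The direction of cholesterol synthesis genes depended on the library set. Pooled, 10 of 20 genes rose and 3 fell (median 0.46). In set 1 alone 5 rose and 9 fell (median -0.05), in set 2 alone 18 rose and 1 fell (median 1.40), and the set-by-treatment term passed for 20 of 20 members, against 22.4% of all genes. Over its members the summed CPM reached 3212 to 3652 in set 1 and 1185 to 1339 in set 2 without serum, and 2701 to 2716 and 3167 to 3500.4 with FBS, so the sets differed mainly in their serum-free libraries. HMGCS1, which makes the precursor of mevalonate, had a pooled log2 fold change of 0.86 (adjusted p = 0.0371), -0.01 in set 1 and 2.75 in set 2 (adjusted p of the set-by-treatment term = 1.84e-13). Its pooled call was lost when FBS replicate 7 or 8 or any of serum-free replicates 5 to 8 was left out and in set 1 alone, at adjusted p up to 0.898. INSIG1, a sterol-regulated brake on the pathway, fell in set 1 alone (-2.49) and did not pass in set 2 alone (0.07, adjusted p = 0.438). SQLE, squalene epoxidase, fell in set 1 alone (-0.51) and rose in set 2 alone (1.46). STARD4, a carrier of cholesterol, rose in both (1.49 and 3.21). Fatty acid synthesis genes rose in 6 and fell in 3 of 10 cases (median 0.39, 0.09 and 0.91), and 1 fell in set 2 alone or with neighbouring libraries summed. ELOVL6, a fatty acid elongase (1.98), rose and ACSS2, an acetyl-CoA synthetase (-1.47), fell.

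**Figure D5:**
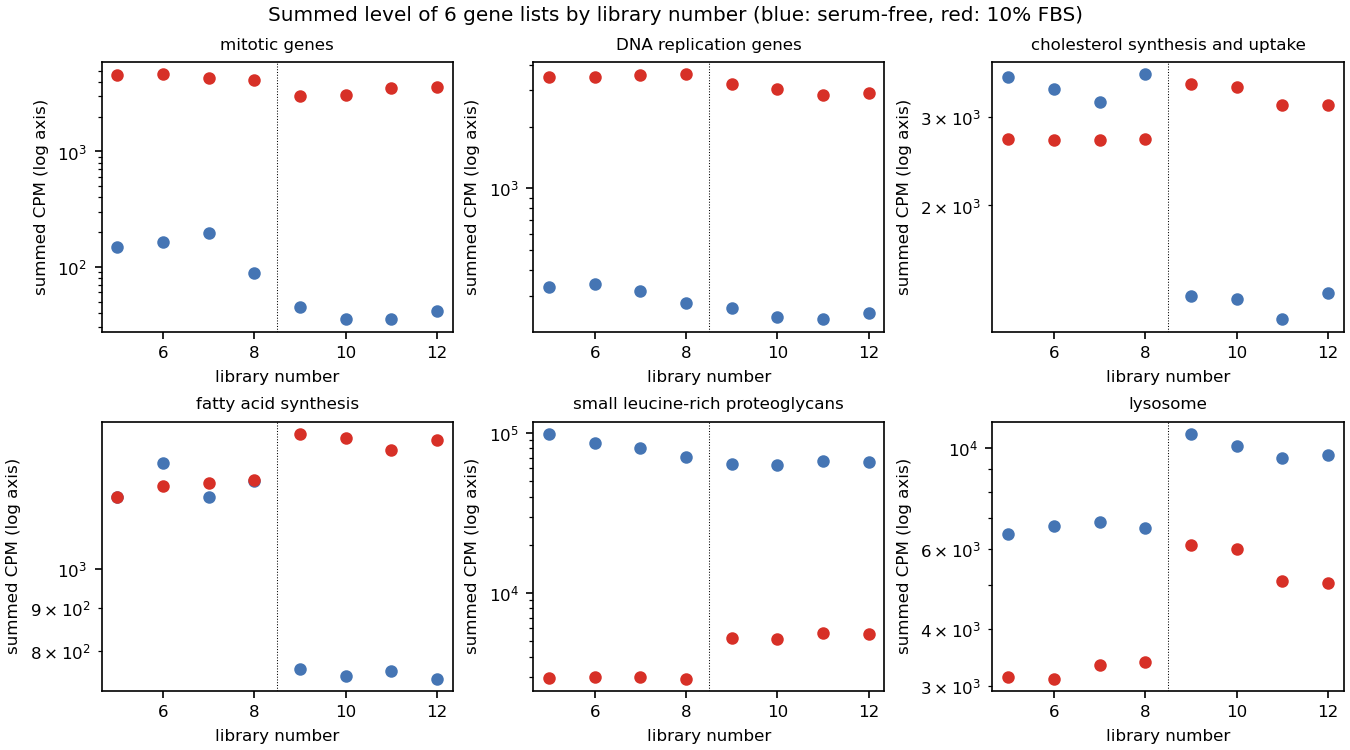
Summed CPM (log axes, which differ between panels) of 6 gene lists in each library against its number in the library names, serum-free in blue and FBS in red, with a dotted line between numbers 8 and 9. Cholesterol synthesis is above FBS in serum-free libraries 5 to 8 and below it in 9 to 12, while mitotic, replication, proteoglycan and lysosome genes keep 1 order in all libraries.

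Stress pathways rose in part. Unfolded protein response genes rose in 11 and fell in 3 of 18 cases, or 5 with the replicate number as a block and 6 in set 1 alone (median 0.60, 0.61 and 0.69), with SDF2L1 (2.71) and MANF (1.78), chaperones of the endoplasmic reticulum, higher and the transcription factor XBP1 lower (-1.33). The amino acid starvation response rose in 12 and fell in 3 of 18 cases (median 1.13, 1.32 and 0.86). SLC7A5, a transporter of large amino acids, ranged from 13.4 to 40.4 CPM (median 22.9) without serum and from 318 to 514 CPM (median 393) with FBS (log2 fold change 4.01, SE 0.32, edgeR adjusted p = 1.33e-11). Targets of p53 rose in 11 and fell in 6 of 18 cases, or 3 with total library size (median 0.69, 1.03 and 0.54), and the death receptor FAS rose most (6.58). Antioxidant and detoxification genes rose in 10 and fell in 6 of 20 cases (median 0.34, 0.65 and 0.14). The secreted enzymes GPX3 (-5.37) and SOD3 (-4.04) and the plasma selenoprotein SEPP1 (-4.89) fell, and SRXN1, sulfiredoxin, rose (2.54).

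Most genes of FOXO signaling, the lysosome and the clock fell. FOXO and insulin signaling genes fell in 12 and rose in 4 of 19 cases (median -0.57, -0.56 and -0.92), a list that shares PDK4 and PIK3IP1 with the quiescence genes; KLF15 also fell (-2.55) and TRIB1, a pseudokinase, rose (4.08). Lysosomal genes fell in 20 and rose in 2 of 22 cases (median -0.98, -1.13 and -0.91). The membrane protein LAMP1 fell (-1.82), and CTSK, the collagen-degrading cathepsin K, rose (1.02). Of 16 circadian clock genes 13 fell and 2 rose (median -1.22, -0.83 and -1.47). NR1D1, a repressor of the clock, ranged from 129 to 172 CPM (median 137) without serum and from 6.83 to 9.06 CPM (median 8.25) with FBS (log2 fold change -4.15, SE 0.10, edgeR adjusted p = 5.65e-22). HLF (-3.79), NPAS2 (-3.51) and CRY2 (-2.62) fell, and NFIL3 rose (1.93). The hour of harvest is not in the labels. Retinoid genes fell in 6 of 12 cases, or 3 with total library size or neighbouring libraries summed, and rose in 4 (median -0.47, -0.50 and -0.03), with the nuclear receptor RXRG down (-7.14) and CYP26B1, which degrades retinoic acid, up (4.73).

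Transcription factors of the neural crest and of periocular mesenchyme split, 4 of 15 higher and 7 lower (median -0.13, which turned to 0.13 with total library size). SOX10 (-2.88), TFAP2B (-2.56) and MEOX2 (-2.54) fell, while TCF21 went from 0 counts to 340 (at least 96.1-fold) and SNAI1 rose (1.90). PRRX1 and ZEB2 did not pass (0.06 and -0.08, adjusted p = 0.655 and 0.601). Ion channels and transporters rose in 9 and fell in 2 of 16 cases (median 0.56, 0.57 and 0.53), with the bicarbonate cotransporter SLC4A4 down from 397 ± 137 to 40.1 ± 16.6 CPM (-3.31). Besides AQP3, 3 aquaporins could be tested, and AQP4 (-4.96), AQP11 (-1.72) and AQP1 (-1.27), the aquaporin of keratocytes, fell. AQP7, a glycerol channel with too few counts for the test, went from 0 counts to 110 (at least 31.1-fold). Among cadherins, gap junction and adhesion genes 7 rose and 8 fell of 15 (median -0.29, but 0.03 with the 16 libraries fitted alone and 0.01 in set 2 alone). ICAM1 (3.82) and N-cadherin, CDH2 (3.64), rose, and VCAM1 (-3.85) and VE-cadherin, CDH5 (-2.76), fell.

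The samples were also read for other cell types of the cornea. Epithelial keratin KRT12 and EPCAM had 0 counts in both groups, KRT5 had 6 and 3 counts and PAX6 3 and 2, while the keratin KRT15 had 0 counts without serum and 79 with it. Of 13 epithelial markers 3 could be tested, KRT19 (3 counts against 1381), TP63 (3.76) and DSP (-3.44). Summed over the list, epithelial markers were 1.91 to 5.05 CPM without serum and 10.8 to 18.1 CPM with it. Among 12 leukocyte markers, 7 had too few counts for the test. PTPRC had 21 counts without serum and 18 with it, ITGAM 17 and 0, and CD74 148 and 19. The summed level of all 12 was nonetheless higher with FBS, at 8.71 to 12.9 CPM without serum and 149.9 to 229 CPM with it. Much of the FBS sum was LAPTM5, a lysosomal protein (4.01 ± 1.10 and 171 ± 25.0 CPM, 5.41). CD68 rose too (2.35 ± 0.873 and 18.3 ± 5.98 CPM, 2.95). Only these 2 of the 5 tested members rose, and 1 fell. Their pooled median (0.13) turned negative in 4 alternative settings, down to -0.20, whereas fitting set 1 alone gave 1.46 and set 2 alone 1.20. Vascular endothelial markers fell in 5 of 5 tested cases (median -2.76, sums of 432 to 575 and 77.4 to 94.6 CPM), while PECAM1 had 10 and 126 counts and CLDN5 5 and 14. Markers of glia, Schwann cells and melanocytes fell in 8 of 9 cases (median -2.36, sums of 34.9 to 66.0 and 15.0 to 19.1 CPM), with TYR at 0 in both groups. Corneal endothelial markers rose in 3 and fell in 1 of 5 tested cases, with ZP4 and CLRN1 at 0. Their sum was nonetheless lower with FBS, at 1347 to 1692 CPM without serum and 1126 to 1175 CPM with it. The part of these cells in the genes above was not tested.

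Genes often used as references changed too. Of 17 housekeeping genes 12 rose and 2 fell, or 4 in set 2 alone (median 0.84, 0.63 and 1.07). ACTB, β-actin, ranged from 976 to 1651 CPM (median 1385) without serum and from 6694 to 8345 CPM (median 6934) with FBS (log2 fold change 2.42, SE 0.13, edgeR adjusted p = 4.66e-15). GAPDH rose 2.48-fold (1.31), and GUSB fell (-1.21). B2M (94.1 ± 9.44 and 95.7 ± 14.9 CPM) did not pass (adjusted p = 0.862), with -0.23 in set 1 and 0.26 in set 2.

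Set against TGF-β1, which shares neither its libraries nor its base medium with FBS, 9757 genes (73.3%) differed. Higher with FBS were 4840 (36.4%) and lower 4917 (36.9%). TGF-β1 was given from day 1 and FBS from day 3, so the length of exposure differs too. The changes of FBS over serum-free and over TGF-β1 share the FBS libraries, so their values are given side by side and their likeness is not a result. SELP, with 0 counts in both other groups, AQP3, GPR158, TM4SF1 and CDC20 were the genes with the largest excess over TGF-β1 among those that rose in both comparisons. GPR158 was 0.0431 ± 0.0850, 65.3 ± 19.2 and 0.0985 ± 0.0869 CPM without serum, with FBS and with TGF-β1, TM4SF1 was 0.155 ± 0.145, 53.9 ± 15.0 and 0.209 ± 0.202 CPM, and CDC20 was 2.06 ± 2.14, 228 ± 23.6 and 0.901 ± 0.365 CPM. In the other direction stood GDF10, CILP, RASGEF1C, LTBP2 and ASPN. ASPN, asporin, was 207 ± 39.2, 10.1 ± 3.64 and 4445 ± 1727 CPM in the same order, and the log2 difference of FBS over TGF-β1 was -8.78 (adjusted p = 5.52e-19). Of the lists above, 30 of 30 mitotic genes were higher with FBS than with TGF-β1 (median 6.40), as were 20 of 20 ribosome biogenesis genes (median 1.58). Fibrillar collagens were lower in 11 of 11 cases (median -2.73), small leucine-rich proteoglycans in 11 of 13 (median -3.70) and contractile genes in 3 of 14, with 7 higher (median 0.37).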

How the data were processed

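RNA was sequenced from rabbit corneal keratocytes in 24 libraries, 8 per condition, and 16 of them enter this comparison. The authors deposited read counts for each gene and library as whole numbers that were not normalized, going by the values and per the file headers. They also deposited FPKM values, which divide the same counts by gene length and a library size, and these served only as an alternative and for no level printed here. The sources used here name no aligner, counting program, genome build, annotation or strand setting. Of 8020 genes listed by number, 700 were given a symbol from RefSeq.

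The tests used edgeR 4.0.16 under R 4.3.3. After filterByExpr (13308 genes kept) and TMM scaling, 1 model with a coefficient per condition took in all 24 libraries, so that the groups share one estimate of the spread. Quasi-likelihood F-tests were adjusted over the 13308 genes (Benjamini-Hochberg), and a gene is called at an adjusted p under 0.05. The SE printed for a gene was derived from its test, as the absolute log2 fold change divided by the square root of F. "Rose" and "fell" are used only of called genes. With 0 counts in a group the fold is a bound against 3 counts over the group, and with 1 to 3 counts a ratio with an exact 95% interval. Of the 59 lists only 3 had a member at 0 in a group, 1 each and the largest rise of its list. Setting that member to the bound could not move their medians. Exact permutation tests used scipy 1.17.1. The edgeR step was run on simulated data for this comparison (13197 genes). It recovered 48.44%, 82.35% and 100% of genes changed 1.5-fold, 2-fold and 4-fold, with 6 false calls. Only 64, 68 and 65 genes were changed at these folds, and the simulated libraries were drawn independently, without sets. The simulation therefore cannot show how scaling and false calls behave where most genes change and libraries fall into sets, as here.

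The members and the 59 gene lists (1047 genes, 76 not matched in the table, 27 found by number) were chosen with earlier results of these data known, so lists are described by counts and medians with no test of their own. Named genes are the 10 largest rises and falls among named genes (mean of at least 5 CPM, no overlap), up to 4 called and 2 uncalled members per list, fixed markers, the most abundant genes and 5 per direction against TGF-β1. Some of these are not reported here, and 55 named genes outside this rule were chosen after their values were seen.

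Replicate numbers might pair the libraries. Residuals of libraries of the 2 groups with the same number correlated at 0.115 to 0.429, above 0.1 in each of the 8 pairs, so results that changed under a fit with the number as a block are given with it. A library matched its own number best in 7 of 16 cases, and inside each set of numbers (5 to 8, 9 to 12) they correlated at -0.00435 to 0.230. No library of a group had the same counts as another, with a lowest chi-square per gene of 2.85, but neighbouring numbers were often close. FBS replicates 1 and 2, 3 and 4, and 7 and 8 stood at 2.85, 3.41 and 3.12. Whether such neighbours are repeat preparations of the same RNA or culture was not tested. Alternatives were total library size, DESeq2 1.42.0, no filter, limma 3.58.1 on log2 of FPKM plus 1 or 0.1, the 16 libraries alone, the block, the set as a covariate, each set alone, neighbouring libraries summed, and leaving out libraries.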

Additional observations from a re-analysis of the deposited data

Results flagged for a closer look

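Groups were examined for the named genes other than F3, C3, C5 and C7, and for the shares of counts of the 7 gene classes. Genes were examined on log2(CPM + 0.5) and shares in percent of counts. A sample far from the other 7 of its group was found in 16 of 506 groups, 3.16%, where chance flags about 1 in 20. Serum-free replicate 1 accounted for 5 of them. It was low for COL4A2 (1.94 CPM, others from 5.34 to 8.91), JUN (32.3 CPM, others from 45.9) and PGAM1 (68.0 CPM, others from 90.1), and high for OMD (347 CPM, others up to 265) and GINS1 (1.12 CPM, others up to 0.417). Serum-free replicate 7 was low for B2M (74.1 CPM, others from 90.3) and FHL2 (5.62 CPM, others from 7.19). Serum-free replicate 5 was low for COL6A3 (6912 CPM, others from 9072) and had no count of TP63 (0 CPM, others from 0.261). Serum-free replicate 4 was high for FAM216B (41.0 CPM, others up to 28.5), and serum-free replicate 8 was low for DDO (1.59 CPM, others from 2.53 CPM). None of these gaps changed whether the gene was called when that library was left out.

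The remaining groups are at or near 0 counts, and their high value comes from 1 library with a few reads. They are CILP in FBS replicate 8 (0.0855 CPM), FBP1 in FBS replicate 7 (0.0546 CPM), OTOR in FBS replicate 4 (0.115 CPM) and KCNA1 in serum-free replicate 4 (0.0610 CPM), where the other 7 libraries had 0 counts. RXRG in FBS replicate 1 reached 0.246 CPM, with the others at 0 to 0.0989 CPM.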

How the results depend on the processing

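Counts of called genes stayed within 1.5 times the reported ones under the 28 alternative settings run. Genes higher with FBS numbered 5138 to 6219, against 5257, and genes lower 4450 to 6785, against 5386. Total library size gave the most uneven split, 6219 higher and 4450 lower. Changes of at least 2-fold numbered 4308 (limma on log2 of FPKM plus 1) to 8388 (no filter). Leaving out 1 library gave 5228 to 5376 higher, 5261 to 5502 lower and 6236 to 6310 changed at least 2-fold. With the replicate block 5488 genes were higher, 5616 lower and 6213 changed at least 2-fold. No list count moved by over 1.5 times beyond the unfolded protein response genes. Whether same-numbered libraries are true pairs is uncertain, since inside each set their residuals correlated at only -0.00435 to 0.230. Among the named genes followed through the settings, the block changed the call of ANGPTL7 only.

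Of 233 called genes followed through the settings, 227 kept their call and direction in all of them. F3, C3, C5 and C7, also named in the text, were not followed. HMGCS1 was -0.0118 on the log2 scale in set 1 alone and INSIG1 0.0722 in set 2 alone, both opposite in sign to the pooled value and not called there, and the cause was not tested. Besides the settings named above, HMGCS1 lost its call with the 16 libraries fitted alone, with neighbouring libraries summed and without FBS replicates 5 and 6 (adjusted p = 0.0698, 0.130 and 0.0545). CDKN1A, MMP1, RASGEF1C and GDF10 kept their direction and lost the call in 1 to 3 settings each. Of 13 named genes that did not pass, 9 passed in at least 1 setting, among them CLTC, JUN and PRRX1 with total library size only. Medians of 9 of 59 lists changed sign in some setting, 1 of them (immune cell markers, without FBS replicate 5 or serum-free replicate 8) when a single library was left out. Depth limits the folds of genes at 0 counts in a group, since 3 counts over 8 libraries set the bound. The promoter description planned for cell division genes was not run.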

Other observations

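Gene families taken by name, outside the lists above, are described here against 39.5% of all genes higher and 40.5% lower. All 22 nucleoporins rose (median log2 fold changes of 1.59 pooled, 1.71 for set 1 and 1.43 for set 2), as did all 18 tRNA synthetases (median 1.07, 1.12 and 1.06). Mitochondrial ribosomal proteins rose in 68 of 70 cases with none lower (median 1.42), and centromere proteins in 18 of 19 (median 3.26). Of 33 respiratory complex I subunits, 24 were higher and 2 lower (median 0.87). In the other direction, ADAMTS proteases fell in 10 of 13 cases (median -2.16), although ADAMTS1 rose, and semaphorins, guidance cues of axons and vessels, fell in 12 of 18 with 3 higher (median -2.04). Ephrins and their receptors fell in 10 of 15 cases (median -1.38), protocadherins in 8 of 13 (median -1.68) and genes of the ZNF family in 117 of 222, with 32 higher (median -0.46). None of 36 HOX genes in the table had enough counts to be tested.

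Messages encoded by the mitochondrial genome had a smaller median than the nuclear genes above, a difference that was not tested. Of 13, 6 were called higher and 2 lower, with a median of 0.40 pooled, -0.02 for set 1 and 0.64 for set 2, and their groups of libraries overlapped in all 13 cases.

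Some genes were present in every library of one group and at 0 in the other. There were 52 with no count in the serum-free libraries and a count in all 8 FBS libraries, 28 of them with a symbol, and 53 the other way round, 25 with a symbol. After SELP, DKK1, FABP4 and TCF21, the former include SAMD11 (278 counts), the homeobox gene DLX2 (239 counts) and the neuronal RNA-binding protein gene ELAVL4 (140 counts). After CHRNA3 and GRM3, the latter include DDO, D-aspartate oxidase (424 counts), SCGN, secretagogin (309 counts), and KCNIP1, a potassium channel partner (287 counts). These genes were named after their values were seen.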
